A study of Mus musculus with 24 samples.

Results

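The Dlk1-Dio3 imprinted miRNA cluster was represented by 57 of the 558 mouse miRNA probes on the array. Members were chosen by name alone: a probe for a mouse miRNA, with no star in its name, that carries one of the miRNA numbers of the cluster. The rule uses no measured value, but it was set with earlier results of these data known. Total RNA came from 3 mouse mammary carcinoma lines grown for 6 days in organotypic culture, and each of 24 arrays held 1 RNA sample against a reference. The labels describe 67NR cells as nonmetastatic, 4TO7 cells as systemically invasive and 4T1 cells as highly metastatic, and all 3 lines are known to stem from a single mouse mammary tumour. Each line was kept on a compliant or a rigid microenvironment and was treated either with the ligand TGF-beta or with a compound that blocks its type I receptor, a state the labels call basal and that is called inhibitor here. The 12 groups had 2 replicates each, named set 1 and set 2. No culture went without an agent, so the TGF-beta comparison sets the ligand against a block of its receptor. The labels do not say whether the 2 sets were separate cultures, so p-values measure only the spread between these arrays. Each line is 1 established line, so a difference between lines is a difference between these lines and not between metastatic classes.

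The cluster lies on the distal part of mouse chromosome 12. Its miRNAs are processed from long noncoding transcripts made from the maternally inherited copy, in the order Meg3, the antisense transcript of Rtl1, Rian and Mirg, while Dlk1, Rtl1 and Dio3 are expressed from the paternal copy. The miRNAs are abundant in the embryo, the placenta and the brain and are low in most adult epithelia, and the locus is known for variable silencing in cultured stem cells and in tumours. MiRNAs such as miR-127 and miR-433 lie opposite the Rtl1 coding sequence and pair with its mRNA perfectly.

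By place, 16 of the 57 probes belonged to the Meg3 and Rtl1-antisense group, 2 to Rian and 39 to Mirg. RefSeq (assembly GRCm38.p6) held a sequence for every one of them. The array names give the arm of the hairpin for 22 members, which matched a single mature sequence each. For 35 members the name gives no arm. RefSeq lists both arms for 31 of them and 1 arm for the other 4, miR-376c, miR-485, miR-487b and miR-539. In neither case is it settled which arm the probe reads. The first 8 sequences below are shown because they are the arms of 4 hairpins of which 1 arm was detected on all 24 arrays and the other on none or 1. They are written 5′ to 3′ with the seed, bases 2 to 8, in capitals, and all lie on the plus strand.
miR-337-5p, chr12:109585818-109585839, detected on 24 arrays: cGGCGUCAugcaggaguugauu
miR-337-3p, chr12:109585850-109585871, detected on 0 arrays: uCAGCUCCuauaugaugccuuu
miR-434-5p, chr12:109594528-109594549, detected on 24 arrays: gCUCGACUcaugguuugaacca
miR-434-3p, chr12:109594565-109594586, detected on 0 arrays: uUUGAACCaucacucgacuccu
miR-540-5p, chr12:109586085-109586107, detected on 1 array: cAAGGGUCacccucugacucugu
miR-540-3p, chr12:109586122-109586141, detected on 24 arrays: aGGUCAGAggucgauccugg
miR-673-5p, chr12:109572004-109572025, detected on 0 arrays: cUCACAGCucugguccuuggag
miR-673-3p, chr12:109572044-109572066, detected on 24 arrays: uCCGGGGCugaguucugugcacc

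The next 6 sequences belong to the 3 members with no arm in their array name on which the comparisons of lines, TGF-beta and rigidity turn. Both arms are shown, because the array name does not settle which one the probe reads.
miR-494-5p, chr12:109715334-109715355: aGGUUGUCcguguugucuucuc
miR-494-3p, chr12:109715367-109715388: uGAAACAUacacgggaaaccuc
miR-665-5p, chr12:109586331-109586356: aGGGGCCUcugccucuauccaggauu
miR-665-3p, chr12:109586368-109586387: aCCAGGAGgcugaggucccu
miR-431-5p, chr12:109590459-109590479: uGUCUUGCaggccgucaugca
miR-431-3p, chr12:109590502-109590523: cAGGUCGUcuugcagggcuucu

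Few member sequences shared an identical seed, and similarity beyond identical seeds was not tested. The 88 RefSeq mature sequences listed for the 57 probes, not all of which the probes may read, held 85 different seeds. The 3 seeds that occurred in a pair of miRNAs were AUGUAAC (miR-379-3p and miR-411-3p), GGUUGUC (miR-410-5p and miR-494-5p) and UGGAUAU (miR-376b-5p and miR-376c-5p).

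The arrays detected between 313 and 357 of the 558 mouse probes each, where detected means a deposited presence p under 0.05. Replicate arrays of a group correlated with r between 0.995 and 0.999. Levels are given below as log2 of the deposited relative intensity after quantile normalization, on which scale a difference of 1 is a 2-fold change. The median residual SD between replicates was 0.0764 on that scale over the 365 probes tested and 0.0807 over the 32 members among them. Levels of different probes are not compared.

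Detection differed between members of the cluster. Of the 57 members, 22 (38.6%) were detected on all 24 arrays, 21 (36.8%) on none and 14 (24.6%) on some. Over all 558 mouse probes, 284 (50.9%) were detected on all arrays, 174 (31.2%) on none and 100 (17.9%) on some. In the Meg3 and Rtl1-antisense group, 7 of 16 members were detected on all arrays and 6 on none. Both Rian members, miR-341 and miR-370, were detected on all arrays. In Mirg, 13 of 39 members were detected on all arrays and 15 on none. Detected and undetected members lay interspersed along the cluster.

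**Figure D1:**
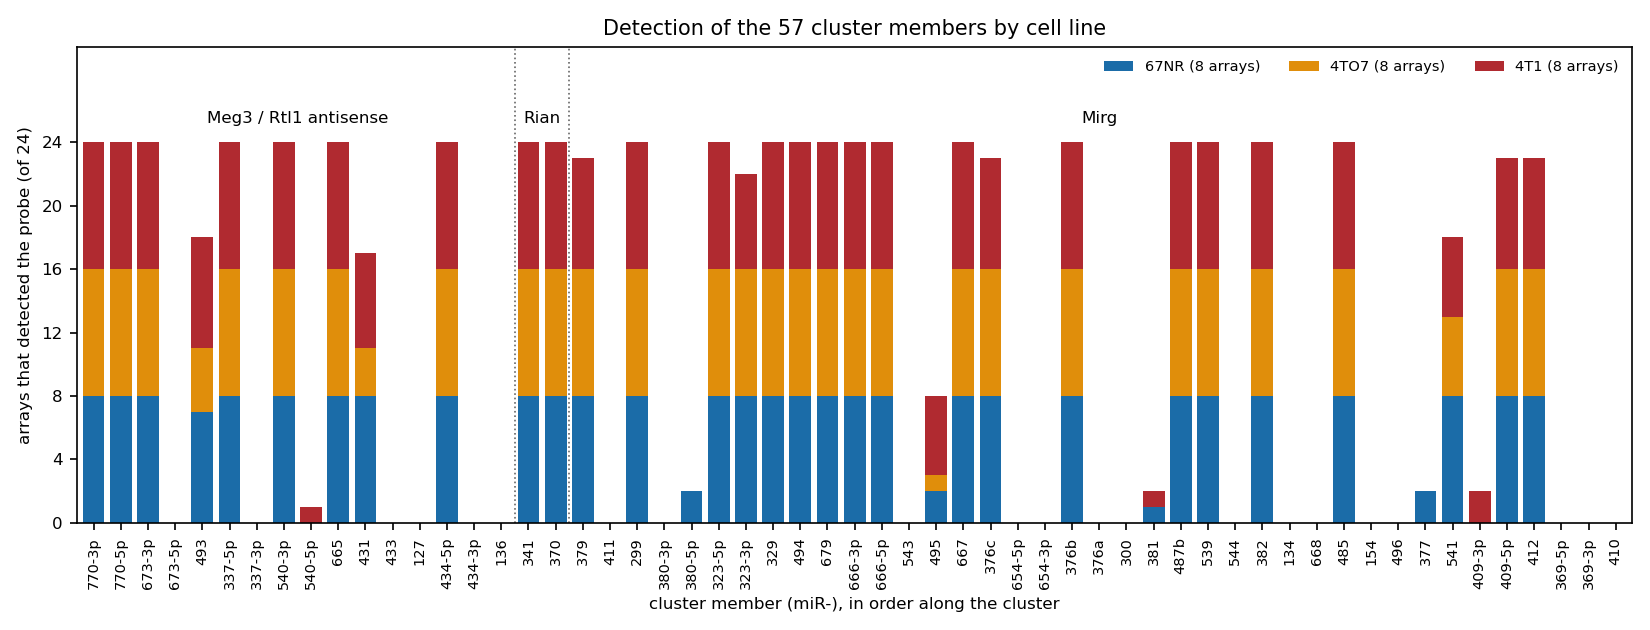
Number of arrays (of 24, vertical axis) that detected each of the 57 members, in order along the cluster, with the bar split by cell line (8 arrays each). The 22 bars that reach 24 and the 21 empty places are scattered through the Meg3 / Rtl1 antisense and Mirg groups.

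The 6 members of the Meg3 and Rtl1-antisense group that no array detected were miR-673-5p, miR-337-3p, miR-433, miR-127, miR-434-3p and miR-136. The 15 such members of Mirg were miR-134, a regulator of dendritic spines in neurons, together with miR-154, miR-300, miR-369-3p, miR-369-5p, miR-376a, miR-380-3p, miR-410, miR-411, miR-496, miR-543, miR-544, miR-654-3p, miR-654-5p and miR-668. For miR-544 the fail code, which marks a reference signal below background, was set on all 24 arrays. These members were not well above background, which gives no lower bound on their level in the cells.

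For 11 hairpins the array held both arms under names that give the arm, and in some of them the arms differed in detection. For miR-666 and miR-770 both arms were detected on all 24 arrays, and for miR-369 and miR-654 neither was detected on any. The other 7 hairpins differed between the arms: miR-337, miR-434, miR-540 and miR-673 as shown above, miR-409 with 23 arrays for the 5p and 2 for the 3p arm, miR-323 with 24 and 22, and miR-380 with 2 and 0. The arm with more G and C was the one detected on more arrays in 6 of these 7 hairpins. The exception was miR-409, at 47.8% GC for the 5p arm and 54.5% for the 3p arm. Hairpins with an unstarred and a star probe were left out of this count, because their names give no arm. The pattern is thus not one for the whole cluster.

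GC content moved with detection over all members whose arm is known. The 9 such members detected on all arrays had a median GC content of 68.2% (50 to 72.7%), the 5 detected on some arrays 52.4% (45.5 to 56.5%) and the 8 detected on none 45.5% (23.8 to 59.1%). Over all 121 mouse probes with an arm in their name, of which 98 (81.0%) had a RefSeq sequence, the medians were 57.2% on all arrays, 53.5% on some and 40.9% on none. The part of base composition in the detection classes was not tested.

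**Figure D2:**
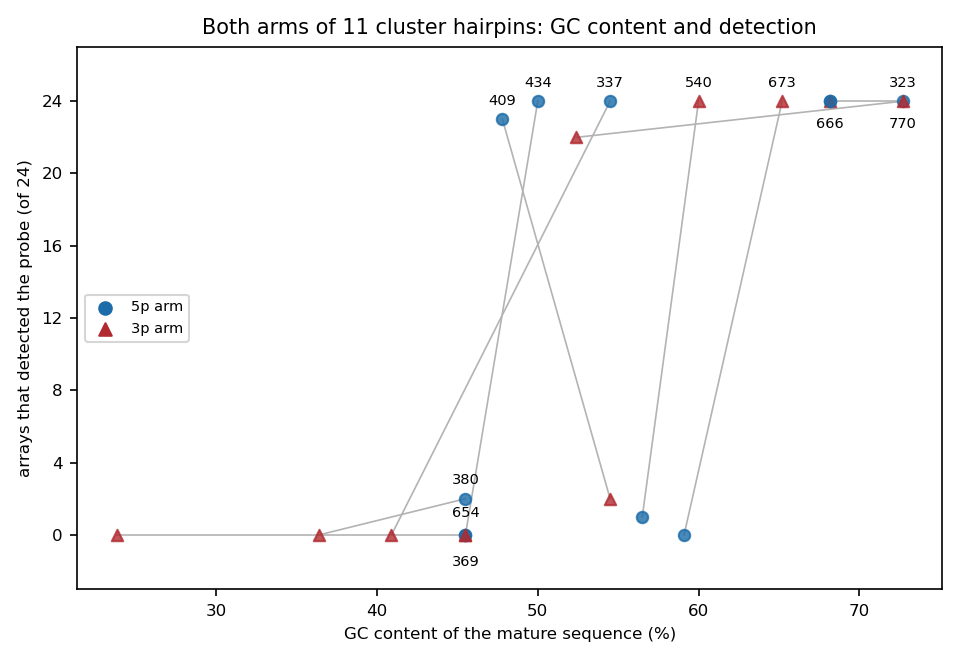
GC content of the mature sequence (horizontal axis, %) against the number of arrays that detected the probe (vertical axis, of 24). Shown are both arms of the 11 cluster hairpins whose probe names give the arm. A line joins the 2 arms of a hairpin, circles are 5p and triangles 3p arms. Lines rise to the right for 6 of the 7 hairpins whose arms differ in detection, and fall for miR-409.

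Star-strand probes of the same hairpins, which the choice of members left out, gave the complement for some of them. Of 13 star probes, those for miR-127*, miR-376b*, miR-376c*, miR-431* and miR-433* were detected on all 24 arrays and the other 8 on none. For miR-127 and miR-433 the star probe was detected on 24 arrays and the unstarred probe on 0. For miR-299, miR-382 and miR-485 the unstarred probe was detected on 24 arrays and the star probe on 0. Among other genes of the cluster, miR-453 was detected on 24 arrays and miR-758 on none.

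The number of members detected per array was 30 to 33 in 67NR (mean 30.8 ± 1.16, SD, n = 8 arrays), 27 to 30 in 4TO7 (28.6 ± 1.06) and 25 to 32 in 4T1 (29.6 ± 2.0). The highest 4TO7 arrays reached the lowest 67NR arrays, and 4T1 spanned both. The difference between 4TO7 and 67NR was -2.12 members, with an exact two-sided permutation p of 0.00926 and 0.0463 after adjustment over the 5 comparisons of this kind. Without set 1 of 67NR on the compliant microenvironment with inhibitor, the adjusted exact permutation p was 0.0694. At a detection p under 0.01 the means were 24.6 in 67NR, 20.8 in 4TO7 and 20.6 in 4T1, and 4T1 minus 67NR was then -4.0 (exact permutation, adjusted p = 0.00772) and 4T1 minus 4TO7 -0.125 (adjusted p = 1.0). At a detection p under 0.05 the other 4 comparisons did not pass: 4T1 minus 67NR was -1.12 (exact permutation p = 0.208, adjusted 0.341), 4T1 minus 4TO7 1.0 (0.273 and 0.341), TGF-beta minus inhibitor -0.667 (0.358 and 0.358) and rigid minus compliant 1.0 (0.122 and 0.305). Of the probes outside the cluster more were detected per array in 4TO7 than in 67NR, by 17.9 on average (exact permutation p = 0.00154, two-sided), so their difference had the opposite sign to that of the members.

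Detection varied by line for few members. MiR-431, which lies opposite Rtl1, was detected on 8 of 8 arrays of 67NR, 3 of 8 of 4TO7 and 6 of 8 of 4T1. MiR-541 was detected on 8, 5 and 5 arrays, and miR-493 on 7, 4 and 7. MiR-377 and miR-380-5p were each detected on 2 arrays of 67NR and on no other array. For miR-377 these were both arrays of 1 group, which made it the only member detected on both arrays of a group in 1 line and nowhere in the others.

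The tests below cover 32 of the 57 members, which had at least 1 group with detection on each of its 2 arrays and carried the fail code on fewer than 12 arrays. They comprise the 22 members detected on all arrays and miR-323-3p, miR-376c, miR-377, miR-379, miR-409-5p, miR-412, miR-431, miR-493, miR-495 and miR-541. Left out were the 21 members never detected and miR-380-5p, miR-381, miR-409-3p and miR-540-5p, which 1 or 2 arrays detected. A member that passed through 1 group alone had to be high there, so counts over the 32 are descriptions. All adjusted p-values for single members come from limma with Benjamini-Hochberg adjustment over the 365 probes, and errors of log2 differences are SE. With bulk RNA, fewer cells of a kind and less of a miRNA per cell cannot be told apart.

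Members of the cluster were lower in both 4TO7 and 4T1 than in 67NR. The members that were lowest relative to 67NR were miR-494 of Mirg, miR-673-3p and miR-431 of the Meg3 side, and miR-341 of Rian. The differences were modest, the largest being less than 2-fold. None of the 32 members was higher in either line than in 67NR by the test. Of all 365 probes, 57% were lower in 4TO7 and 58.9% in 4T1, while 29.9% and 30.7% were higher.

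The level of miR-494 was 12.01 to 12.38 (median 12.27) in 67NR, 11.34 to 11.66 (11.46) in 4TO7 and 11.27 to 11.43 (11.38) in 4T1, over 8 arrays each. Every 67NR array lay above every array of the other lines. The log2 difference was -0.80 ± 0.05 for 4TO7 (fold 0.576, adjusted p = 2.15e-10) and -0.90 ± 0.05 for 4T1 (fold 0.536, adjusted p = 2.77e-11). The level of miR-673-3p was 10.76 to 11.11 (median 10.86) in 67NR, 10.08 to 10.47 (10.18) in 4TO7 and 10.01 to 10.26 (10.18) in 4T1. Again no array of 67NR overlapped the others. The differences were -0.65 ± 0.04 (adjusted p = 3.31e-10) and -0.74 ± 0.04 (adjusted p = 4.28e-11).

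MiR-431 varied more within a line. Its level was 7.89 to 8.83 (median 8.46) in 67NR, 7.58 to 7.85 (7.69) in 4TO7 and 7.46 to 8.38 (7.63) in 4T1. The 67NR arrays lay above all 4TO7 arrays but overlapped those of 4T1. The differences were -0.66 ± 0.08 in 4TO7 and -0.63 ± 0.08 in 4T1, with adjusted p of 7.73e-07 and 9.42e-07. Only 3 of 8 arrays of 4TO7 measured it above background, so its 4TO7 level rests partly on undetected values.

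MiR-341, a Rian miRNA known in rodents, had levels of 7.76 to 8.06 (median 8.0) in 67NR, 7.26 to 7.67 (7.49) in 4TO7 and 7.21 to 7.40 (7.26) in 4T1. The lines did not overlap with 67NR, and the differences were -0.46 ± 0.05 (adjusted p = 6.21e-07) and -0.66 ± 0.05 (adjusted p = 5.6e-09). MiR-370, the other Rian miRNA, had levels of 11.11 to 11.40 in 67NR, 11.21 to 11.43 in 4TO7 and 11.11 to 11.58 in 4T1. Its differences of 0.03 ± 0.05 and -0.01 ± 0.05 did not pass the test. The 2 Rian members thus had different values against 67NR, and the difference between them was not tested.

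Among the other members detected on all arrays, miR-540-3p was 7.64 to 7.73 in 67NR, 7.44 to 7.56 in 4TO7 and 7.09 to 7.46 in 4T1. MiR-434-5p was 7.48 to 7.68, 7.29 to 7.38 and 7.06 to 7.26 in the same order, and miR-337-5p 8.85 to 8.96, 8.43 to 8.67 and 8.38 to 8.60. For these 3 members of the Meg3 and Rtl1-antisense group every 67NR array was higher than every array of the other lines. In Mirg, miR-485 was 9.26 to 9.51 in 67NR, 8.87 to 9.17 in 4TO7 and 8.75 to 9.16 in 4T1. MiR-679 was 10.42 to 10.58, 10.19 to 10.22 and 9.79 to 10.10, and miR-666-5p was 9.53 to 9.71, 9.13 to 9.37 and 8.94 to 9.24. These 3 Mirg members also separated 67NR from the rest with no overlap. The members of this paragraph, with miR-494 and miR-673-3p, were the 8 with the largest F statistic over the 12 groups. Their separation thus follows in part from that choice. Of all 365 probes, 32.3% in 4TO7 and 40.3% in 4T1 were below 67NR without overlap. Other members detected on all arrays, such as miR-770-5p and miR-487b, did overlap.

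**Figure D3:**
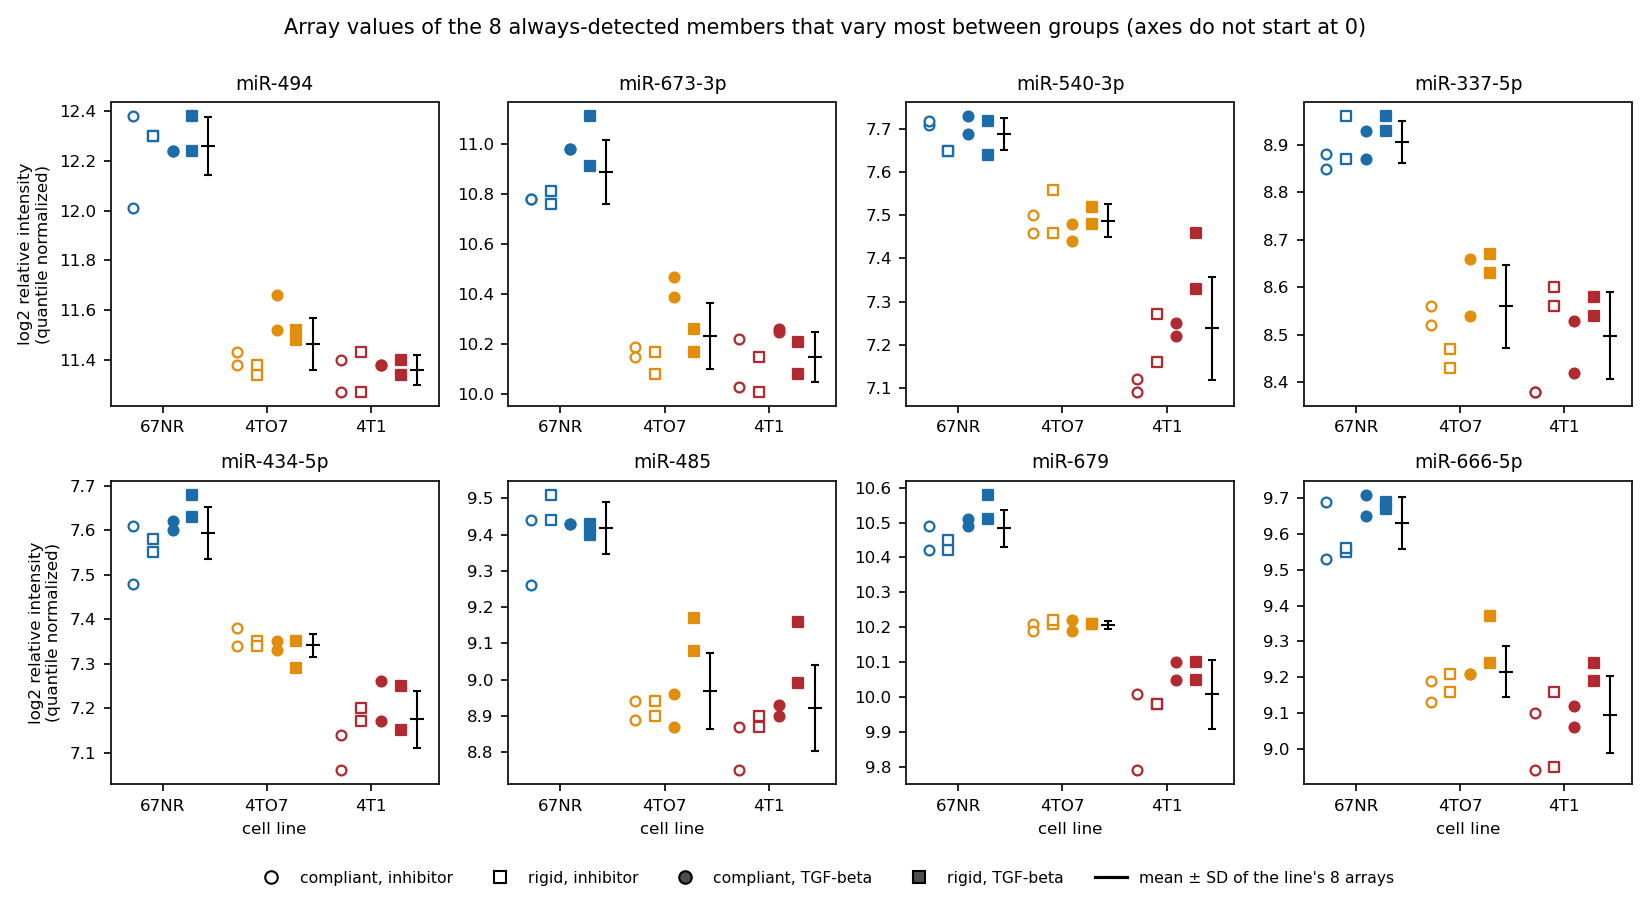
Log2 relative intensity (vertical axes, quantile normalized, not starting at 0) on each of the 24 arrays for the 8 members detected on all arrays that varied most over the 12 groups, by cell line. Open symbols are inhibitor and filled symbols TGF-beta, circles compliant and squares rigid, and the bar gives the mean ± SD of 8 arrays. In each panel all 67NR points lie above all points of 4TO7 and 4T1.

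The other members named by the rule for these comparisons lay in the same direction. In 4TO7 these were miR-485 (log2 difference -0.45), miR-666-5p (-0.42), miR-665 (-0.39) and miR-337-5p (-0.35). In 4T1 they were miR-412 (-0.60), miR-666-5p (-0.54), miR-539 (-0.53) and miR-485 (-0.50).

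By count, 29 of the 32 tested members were lower in 4TO7 than in 67NR and 0 were higher, where 57% of the 365 probes were lower, 29.9% higher and 86.8% differed either way. In 4T1 25 members were lower and 0 higher, against 58.9% of all probes lower, 30.7% higher and 89.6% either way. Both counts share the 67NR arrays. Of the members detected on all arrays, 19 of 22 were lower in 4TO7 and 17 of 22 in 4T1. By place, 8 of 9 tested members of the Meg3 and Rtl1-antisense group, 1 of 2 of Rian and 20 of 21 of Mirg were lower in 4TO7. In 4T1 the counts were 6 of 9, 1 of 2 and 18 of 21. The differences of the members that passed ran from -0.80 to -0.13 in 4TO7 and from -0.90 to -0.12 in 4T1, with SE of 0.02 to 0.08. MiR-493, miR-495, miR-665 and miR-667 did not pass in 4T1, with adjusted p of 0.199, 0.125, 0.226 and 0.505. The members that passed in neither comparison were miR-370, miR-487b and miR-770-5p, with differences between -0.09 and 0.07 and SE of 0.05 to 0.07.

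Probes in general were lower in these lines too, and the members are to be read against that shift. The median log2 difference of the 32 members was -0.25 in 4TO7, where that of all 365 probes was -0.15, and -0.39 in 4T1, where that of all probes was -0.22. Relative to the median of all probes, the members' median was thus -0.10 and -0.17, and 25 and 23 of the 32 members lay below it. Of the 20 never-detected members free of the fail code on most arrays, 16 and 17 were below 0, with medians of -0.08 and -0.14, where the 166 such probes over the whole array had medians of -0.06 and -0.08. With no scaling between arrays the medians of the 32 members were -0.40 and -0.33 and those of all probes -0.30 and -0.17. Arrays on the same slide, as inferred from the array identifiers, were also compared within microenvironment and treatment. The members' median lay between -0.27 and -0.22 in 4 such pairs of 4TO7 and 67NR arrays. It lay between -0.45 and -0.36 in 3 pairs of 4T1 and 67NR arrays, and some pairs shared an array. The same medians over all probes were -0.14 to -0.12 and -0.22 to -0.19.

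Without any overlap of 8 against 8 arrays, 19 of the 32 members were below 67NR in 4TO7 and 19 in 4T1, and 0 were above. Of all 365 probes, 32.3% were below and 18.4% above without overlap in 4TO7, and 40.3% and 23% in 4T1.

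**Figure D4:**
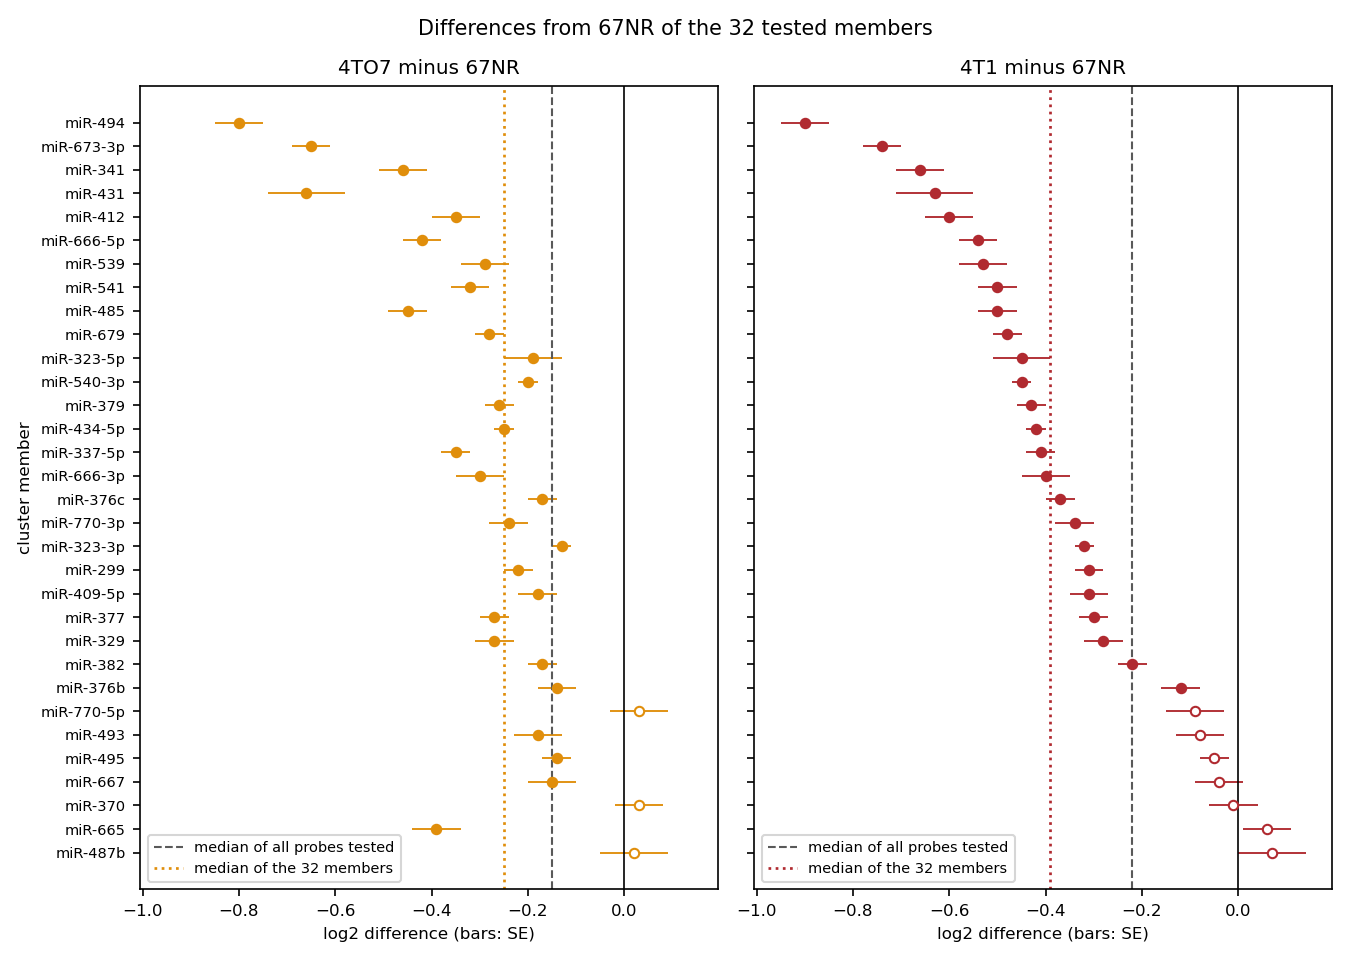
Log2 difference from 67NR (horizontal axes, bars SE) of the 32 tested members in 4TO7 and in 4T1, ordered by the 4T1 difference. Filled points passed the test, the dashed line is the median of the 365 probes (-0.15 and -0.22) and the dotted line that of the 32 members (-0.25 and -0.39). Most members lie to the left of the dashed line, and miR-665 is below 0 in 4TO7 and near 0 in 4T1.

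4T1 and 4TO7 differed less from each other. Of the 32 members, 15 were lower and 2 higher in 4T1 than in 4TO7, where 40% of all probes were lower, 23% higher and 63% differed either way. The median difference was -0.10 for the members and -0.07 for all probes. Arrays of the 2 lines did not overlap for 3 members, all lower in 4T1, and for 7.95% of all probes below and 6.85% above. With no scaling between arrays the medians were 0.07 and 0.12, so the direction of the median depends on the scaling.

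The members lower in 4T1 by the most were miR-323-5p (-0.26 ± 0.06, adjusted p = 0.00123), miR-412 (-0.26 ± 0.05), miR-540-3p (-0.25 ± 0.02), miR-539 (-0.24 ± 0.05), miR-376c (-0.20 ± 0.03), miR-679 (-0.20 ± 0.03), miR-341 (-0.19 ± 0.05) and miR-323-3p (-0.19 ± 0.02). The mature miR-376 family is known for A-to-I editing in its seed, which the array does not resolve. With the slide as a fixed block the difference of miR-341 was -0.17 (limma, adjusted p = 0.0999). MiR-665 was the member that was clearly higher in 4T1 than in 4TO7, by 0.45 ± 0.05 (fold 1.37, adjusted p = 8.89e-07). Its level was 8.97 to 9.24 (median 9.09) in 4TO7 and 9.21 to 10.10 (9.41) in 4T1, with a small overlap. MiR-495 was higher by 0.09 ± 0.03 (adjusted p = 0.0208), but was detected on 5 of 8 arrays of 4T1 and 1 of 8 of 4TO7, and with median scaling over all mouse probes its adjusted p was 0.0523.

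TGF-beta against receptor inhibitor moved single members more than the cluster. Over all lines 9 of the 32 members rose and 1 fell, where 21.4% of all probes rose, 18.1% fell and 39.5% changed either way. The members' median difference was 0.04, against 0.01 for all probes. The risers came from each part of the cluster: miR-665, miR-673-3p, miR-337-5p and miR-540-3p of the Meg3 and Rtl1-antisense group, miR-370 of Rian, and miR-323-5p, miR-666-5p, miR-485 and miR-679 of Mirg. MiR-493 of the Meg3 side fell. The count depended on the scaling: 3 rose and 2 fell with median scaling over all mouse probes, 12 rose and 0 fell with median scaling over the probes detected on all arrays, and 16 rose and 0 fell in the authors' value table.

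MiR-665 had the largest TGF-beta difference, in 4T1. On the compliant microenvironment its 4T1 levels were 9.98 and 10.10 with TGF-beta and 9.21 and 9.32 with the inhibitor. On the rigid one they were 9.49 and 9.77 with TGF-beta and 9.24 and 9.34 with the inhibitor. All 4 TGF-beta arrays of 4T1 thus lay above all 4 inhibitor arrays, and the difference was 0.77 on the compliant and 0.34 on the rigid microenvironment. Over both it was 0.56 ± 0.07 (fold 1.47, adjusted p = 1.18e-05).

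The other lines showed no such separation for miR-665. In 67NR its levels were 9.43 to 9.62 with TGF-beta and 9.36 to 9.67 with the inhibitor, and in 4TO7 8.97 to 9.24 and 8.99 to 9.15. The ranges overlapped in both lines. The test of whether the TGF-beta difference varied between the 3 lines gave an adjusted p of 0.0021 for miR-665 (limma F test). It was the only 1 of the 32 members to pass that test, which 14.5% of all probes passed. No slide held a TGF-beta and an inhibitor array of 4T1 on the same microenvironment. With the slide as a fixed block the 4T1 difference was 0.52 (limma, adjusted p = 0.0082), and the test between lines gave an adjusted p of 0.0703.

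MiR-673-3p was the member that rose in both other lines. In 67NR it was 10.91, 10.98, 10.98 and 11.11 with TGF-beta and 10.76, 10.78, 10.78 and 10.81 with the inhibitor, with no overlap. In 4TO7 it was 10.17, 10.26, 10.39 and 10.47 with TGF-beta and 10.08, 10.15, 10.17 and 10.19 with the inhibitor, so that the groups overlapped. The differences were 0.21 ± 0.06 in 67NR (adjusted p = 0.0247) and 0.18 ± 0.06 in 4TO7 (adjusted p = 0.0376). Over all lines the difference was 0.16 ± 0.03 (adjusted p = 0.00103). All 5 pairs of arrays on the same slide showed the same sign. Of these pairs 2 were of 67NR and 3 of 4TO7, and none was of 4T1. The pairs came from 3 slides, and some of those of 4TO7 shared an array, so they are not independent. The 67NR value was 0.06 with median scaling over all mouse probes (adjusted p = 0.662).

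**Figure D5:**
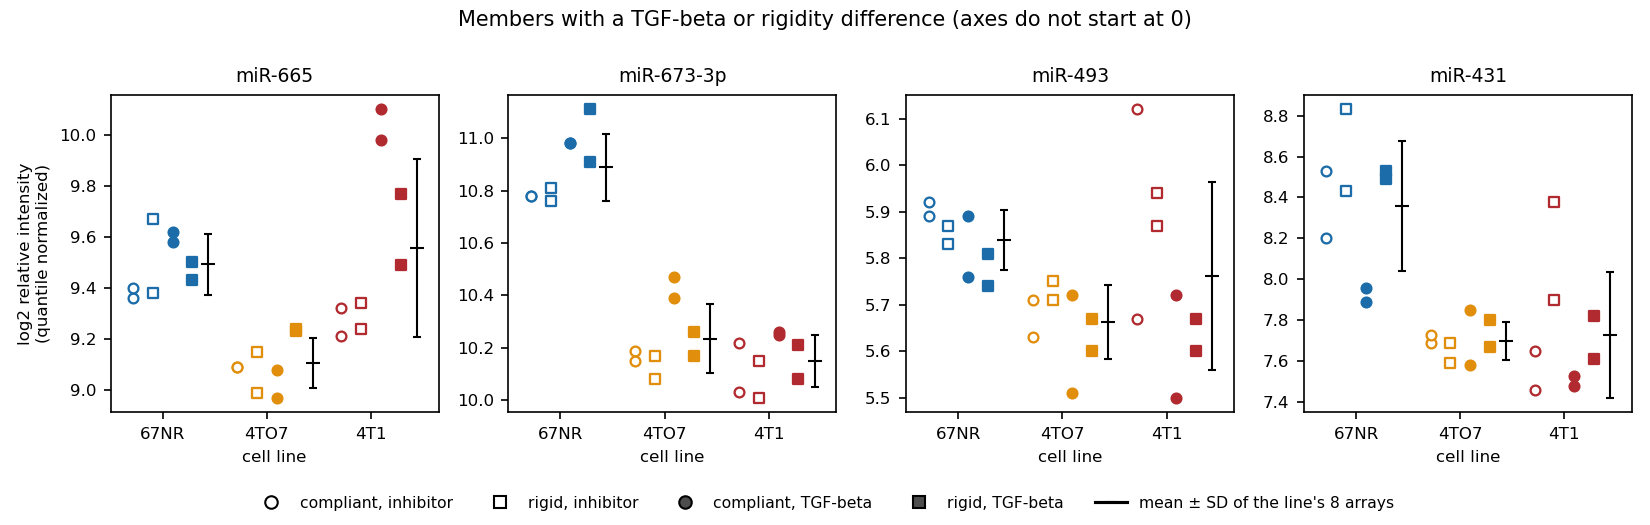
Log2 relative intensity (vertical axes, quantile normalized, not starting at 0) of miR-665, miR-673-3p, miR-493 and miR-431 on each of the 24 arrays by cell line. Open symbols are inhibitor and filled symbols TGF-beta, circles compliant and squares rigid, and the bar gives the mean ± SD of 8 arrays. The filled red points of miR-665 stand above the open ones in 4T1, by more on the compliant (circles) than on the rigid microenvironment.

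The remaining TGF-beta differences over all lines were small. MiR-370 rose by 0.15 ± 0.04 (adjusted p = 0.00873), miR-323-5p by 0.13 ± 0.05, miR-666-5p by 0.10 ± 0.03, miR-485 by 0.08 ± 0.03, miR-679 by 0.07 ± 0.03 and miR-337-5p by 0.07 ± 0.02. With the slide as a fixed block, miR-323-5p, miR-485, miR-679 and miR-337-5p no longer passed, with adjusted p of 0.0848, 0.165, 0.0688 and 0.15. MiR-493 fell by 0.14 on the log2 scale (SE 0.04, adjusted p = 0.0198), and its adjusted p was 0.0631 with median scaling over the probes detected on all arrays. It was detected on 7 of 12 TGF-beta and 11 of 12 inhibitor arrays. In the 5 same-slide pairs, some of which shared an array, the sign was the same in all 5 for miR-370 and miR-666-5p. It was the same in 4 for miR-323-5p, miR-337-5p and miR-493, in 3 for miR-485 and in 2 for miR-679.

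By line, 1 member rose with TGF-beta in 67NR, where 11% of all probes changed, 3.29% rose and 7.67% fell. In 4TO7 3 members rose, where 21.4% of probes changed, 9.59% rose and 11.8% fell. In 4T1 5 rose and 1 fell, where 31.8% changed, 12.6% rose and 19.2% fell. The 67NR riser was miR-673-3p. The count there was 0 without either TGF-beta array of the compliant microenvironment, without set 1 of compliant inhibitor or without set 2 of rigid TGF-beta. Members that did not pass in 67NR included miR-431 at -0.28 ± 0.11 (adjusted p = 0.102) and miR-299 at 0.11 ± 0.04 (adjusted p = 0.103). With median scaling over all mouse probes 0 rose and 1 fell in 67NR, and 1 rose and 1 fell in 4TO7.

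In 4TO7 miR-329 rose by 0.16 ± 0.05 (adjusted p = 0.0374) and miR-337-5p by 0.13 ± 0.04 (adjusted p = 0.0159), beside miR-673-3p. Leaving out either compliant set 2 array of 4TO7, with TGF-beta or with inhibitor, or taking the slide as a fixed block took the 4TO7 count to 0. The count was 1 without set 1 of compliant inhibitor or of rigid inhibitor. In 4T1 miR-370 rose by 0.23 ± 0.07 (adjusted p = 0.017), miR-540-3p by 0.16 ± 0.03 (adjusted p = 0.00262), miR-485 by 0.14 ± 0.05 (adjusted p = 0.0382) and miR-679 by 0.13 ± 0.04 (adjusted p = 0.0284), beside miR-665. The difference of miR-370 was 0.08 in set 1 and 0.39 in set 2, and without set 2 of rigid TGF-beta it was 0.14 (limma, adjusted p = 0.0855). That of miR-679 was 0.08 without set 2 of compliant inhibitor (limma, adjusted p = 0.143). MiR-493 fell by 0.28 on the log2 scale (SE 0.08, adjusted p = 0.012). Its difference was -0.11 in set 1 and -0.45 in set 2, and without set 2 of compliant inhibitor it was -0.17 (limma, adjusted p = 0.0542). Its 4T1 levels were 5.50, 5.60, 5.67 and 5.72 with TGF-beta and 5.67, 5.87, 5.94 and 6.12 with the inhibitor, so that the lowest inhibitor array lay within the TGF-beta range. The 4T1 count was 3 without set 2 of compliant inhibitor and with the slide as a fixed block. In the test of a TGF-beta difference between lines, miR-540-3p (adjusted p = 0.052), miR-329 (0.0699), miR-412 (0.0993) and miR-299 (0.174) did not pass.

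Rigidity changed few members. Over all lines 4 of the 32 rose on the rigid microenvironment and 0 fell, where 10.7% of all probes rose, 11.2% fell and 21.9% changed either way. The median difference was 0.03 for the members and 0.01 for all probes. MiR-431 rose by 0.27 ± 0.06 (adjusted p = 0.00884), miR-666-3p by 0.12 ± 0.04 (adjusted p = 0.043), miR-495 by 0.11 ± 0.03 (adjusted p = 0.0109) and miR-485 by 0.09 ± 0.03 (adjusted p = 0.0331). The count was 2 without any 1 of 5 arrays: set 1 of compliant TGF-beta or set 2 of rigid TGF-beta in 67NR, set 1 of rigid TGF-beta or set 2 of rigid inhibitor in 4TO7, or set 1 of rigid inhibitor in 4T1. MiR-666-3p passed under neither median scaling nor with the slide as a fixed block (adjusted p of 0.118, 0.167 and 0.182).

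MiR-431 had the largest rigidity difference. In 67NR its levels were 8.43, 8.49, 8.53 and 8.83 on the rigid and 7.89, 7.96, 8.20 and 8.53 on the compliant microenvironment. In 4T1 they were 7.61, 7.82, 7.90 and 8.38 on the rigid and 7.46, 7.48, 7.53 and 7.65 on the compliant one, where 2 of 4 compliant and 4 of 4 rigid arrays detected it. In 4TO7 they were 7.59, 7.67, 7.69 and 7.80 against 7.58, 7.69, 7.73 and 7.85. The ranges overlapped in every line, and in 4TO7 almost fully.

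The rigidity difference of miR-431 was 0.43 ± 0.11 in 67NR (adjusted p = 0.0151) and 0.40 ± 0.11 in 4T1 (adjusted p = 0.0342). In 3 pairs of 4T1 arrays of the same slide and treatment, some of which shared an array, it was 0.08 to 0.25. With the slide as a fixed block the 4T1 difference was 0.43 (limma, adjusted p = 0.0625). No slide held a pair of rigid and compliant 67NR arrays of the same treatment. Whether the rigidity difference varied between lines did not pass for miR-431 (limma F test, adjusted p = 0.121).

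Per line, 2 members rose with rigidity in 67NR, where 11% of probes changed, 6.3% rose and 4.66% fell, and 3 in 4T1, where 7.4% changed, 3.56% rose and 3.84% fell. Beside miR-431, these were miR-495 in 67NR and miR-337-5p and miR-540-3p in 4T1. MiR-495 was detected on 2 of 4 rigid and 0 of 4 compliant arrays of 67NR. It was higher on the rigid microenvironment by 0.15 ± 0.04 (fold 1.11, mean levels 6.79 and 6.64, adjusted p = 0.0395). The compliant mean rests on undetected values alone, so this fold is an observed value and not a bound. MiR-337-5p was higher by 0.14 ± 0.04 (adjusted p = 0.0292) and miR-540-3p by 0.14 ± 0.03 (adjusted p = 0.0206), and with the slide as a fixed block both had an adjusted p of 0.0625. MiR-541 in 67NR, at -0.12 ± 0.06, did not pass (adjusted p = 0.206).

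These counts rested on single arrays. The 67NR count was 0 without set 1 of compliant TGF-beta or without set 2 of rigid inhibitor. It was 1 without any of 5 other 67NR arrays (all but set 1 of compliant inhibitor) or any of 3 arrays of 4TO7 (both of compliant inhibitor and set 2 of rigid inhibitor). The 4T1 count was 0 without set 2 of compliant inhibitor, set 2 of compliant TGF-beta or set 1 of rigid inhibitor.

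In 4TO7 0 of the 32 members passed the limma test for rigidity, where 2.74% of probes did (0.822% rose and 1.92% fell), and 6 had an unadjusted p under 0.05. The smallest p-values belonged to miR-666-3p (0.25 ± 0.07, adjusted p = 0.0704), miR-382 (0.13 ± 0.04, adjusted p = 0.153) and miR-379 (0.09 ± 0.04, adjusted p = 0.219). For a difference of the rigidity effect between lines, 0 members passed where 8.22% of probes did, and 5 had an unadjusted p under 0.05. These were miR-540-3p (adjusted p = 0.0623), miR-382 (0.0893), miR-431 (0.121), miR-337-5p (0.176) and miR-665 (0.176).

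The members followed each other across the groups. As a description, the median pairwise Pearson r of the 12 group means was 0.756 over the 32 members and 0.141 over all 365 probes. For the 22 members detected on all arrays it was 0.775, and 0.245 over the 282 tested probes detected on all arrays. After the mean of each line was removed it was 0.156 over the 32 members and 0.0142 over all probes, and 0.265 and 0.0221 over those detected on all arrays. Most of the shared pattern thus lay in the differences between the lines. The points share arrays, and members share transcripts.

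Other probes of the cluster and of imprinted loci were compared with 67NR in the same way, where 57% of all probes were lower in 4TO7 and 58.9% in 4T1, with all-probe medians of -0.15 and -0.22. All 5 detected star strands of the cluster were lower in 4TO7 (median log2 difference -0.28) and in 4T1 (-0.33) than in 67NR, and miR-453 was lower by -0.16 and -0.28. Of 8 probes for miR-296, miR-298, miR-335, miR-483 and miR-675, which lie in the Gnas, Mest, Igf2 and H19 imprinted loci, 6 were tested and all 6 were lower in both lines, with medians of -0.35 and -0.48. The Sfmbt2 intron cluster, whose host gene is expressed from the paternal copy, had 8 of 15 tested probes higher in each line, and 2 lower in 4TO7 and 3 lower in 4T1.

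Markers of cell types moved with the lines as well. Of all 365 probes, 57% were lower and 29.9% higher in 4TO7 than in 67NR. In 4T1 the shares were 58.9% and 30.7%. The all-probe median differences were -0.15 in 4TO7 and -0.22 in 4T1. Of the fibroblast and mesenchymal list, 4 of 5 probes were tested and all 4 (miR-143, miR-145, miR-199a-5p and miR-214) were lower in both lines than in 67NR, with median log2 differences of -0.72 and -0.97. The summed level of all 5 probes of this list was 13.54 to 13.80 in 67NR, 13.11 to 13.23 in 4TO7 and 12.77 to 13.11 in 4T1. Of the 6 epithelial probes 2 were higher in 4TO7 and 5 in 4T1, where the median was 2.14. MiR-200b, miR-200c and miR-429 were detected on all 8 arrays of 4T1 and on none of 67NR. MiR-200a was also detected on all 8 arrays of 4T1. MiR-141, however, was detected on all 8 arrays of each line, and miR-205 on no array of 4T1. The summed epithelial level was 8.59 to 8.68 in 67NR, 8.69 to 9.14 in 4TO7 and 10.61 to 10.83 in 4T1.

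Lists for cells that the cultures should not hold were undetected in part, where 31.2% of all mouse probes were detected on no array. Both endothelial probes for miR-126 and 4 of 5 blood probes (miR-142-3p, miR-142-5p, miR-150 and miR-223) were detected on no array, and miR-451 was detected on all 24. Of 14 embryonic stem cell probes 7 were detected on no array and 4 on all 24. The 4 were miR-290-5p, miR-291a-5p (a probe shared with miR-291b-5p), miR-292-3p and miR-293. The 6 tested were lower in 4TO7 (median log2 difference -0.27) and in 4T1 (-0.38). Of all probes, 57% and 58.9% were lower, with medians of -0.15 and -0.22. The summed level of all 14 stem cell probes was 11.44 to 11.58 in 67NR, 11.20 to 11.39 in 4TO7 and 11.15 to 11.40 in 4T1. Of 6 neural probes 3 were tested, of which 2 were lower in each line and 1 was higher in 4TO7. MiR-124, miR-137 and miR-219 were detected on no array, and miR-129-3p was detected on all 24. Of 5 muscle probes 2 were tested, of which 1 was lower in 4TO7 and 2 in 4T1. MiR-1 and miR-133 were detected on no array, miR-208b on all 24 and miR-206 on all 8 arrays of 67NR. The part of cell state or cell type in the lower level of the cluster was not tested.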

How the data were processed

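MicroRNA was measured on 24 arrays, each with a sample and a reference channel. Per the file headers, an intensity is the authors' relative intensity, sample over reference on a linear scale, with background subtraction and labelling correction and no scaling between arrays. The deposited p-value tests the sample channel against background probes, and the deposited fail code marks a reference channel below background. A table of log2 values deposited by the authors holds 338 probes and equals log2 of the intensities plus 1 constant per array (largest deviation 5.9e-06). Scanner and software are not given in the sources used here.

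The log2 intensities of 558 mouse probes were quantile normalized. Probes detected (p under 0.05) on both arrays of at least 1 group, with the fail code on fewer than 12 arrays, were tested, which left 365. A model of 12 group means (limma 3.58.1 and statmod 1.5.0 in R 4.3.3, eBayes with trend, 12 residual degrees of freedom) gave contrasts averaged over groups, with Benjamini-Hochberg adjustment over the 365 probes. Members detected per array were compared by exact permutation within strata of the other factors (Python 3.11.15). The scripts were tested on simulated data. The number of arrays limits the precision.

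The members, gene lists and tests were chosen with earlier results of these data known. Named members were the 8 with the largest F statistic among those detected on all arrays and, per comparison, up to 8 rises and 8 falls that passed with the same sign in both sets, or the 3 smallest p-values where fewer than 3 passed (5 for tests between lines). Members detected in 1 line only were named too. Slides (5) were inferred from the array identifiers in the labels, and no label states that they are slides. Differences between the sets correlated from -0.156 to 0.486 over 18 pairs of groups of a line, above 0.1 in 11, so the set numbers were not taken as pairing. Alternatives were other scalings, the authors' table, no detection filter, the slide as a block, the set as a block and each array left out.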

Additional observations from a re-analysis of the deposited data

Results flagged for a closer look

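The response of miR-665 to TGF-beta differed between the cell lines in the fit without a slide term, with an adjusted p of 0.0021 (limma F test over the 3 lines). With the slide as a fixed block the adjusted p was 0.0703, and no slide held a TGF-beta and an inhibitor array of 4T1 on the same microenvironment. The TGF-beta minus inhibitor difference was 0.56 ± 0.07 in 4T1 on the log2 scale. By microenvironment it was 0.77 and 0.34 in 4T1 (compliant and rigid), 0.22 and -0.06 in 67NR, and -0.06 and 0.17 in 4TO7, with 2 arrays a side.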

How the results depend on the processing

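The counts of members that passed against 67NR held within 1.5 times in each setting but one: with no detection filter 41 passed in 4T1, of 56 tested. With the set as a block, differences between lines were not averaged over the sets, as described below. No named member reversed under any scaling, table, filter or block. With each array left out in turn, 29 to 29 members passed in 4TO7 against 67NR, 25 to 26 in 4T1 against 67NR and 15 to 21 in 4T1 against 4TO7. For TGF-beta the ranges were 7 to 10 over all lines, 0 to 2 in 67NR, 0 to 4 in 4TO7 and 3 to 9 in 4T1, and for rigidity 2 to 5, 0 to 2, 0 to 1 and 0 to 3. The test of a TGF-beta difference between lines gave 1 to 4 and that of a rigidity difference 0 to 3. The first gave 4 without set 1 of 4T1 compliant inhibitor, 3 without set 1 of 4TO7 compliant TGF-beta, and 2 without set 1 or set 2 respectively of 4T1 rigid inhibitor and 4T1 rigid TGF-beta, or set 1 of 4TO7 rigid inhibitor or 67NR rigid TGF-beta. The second gave 3 without set 2 of 4T1 rigid inhibitor and 1 without set 2 of 4T1 rigid TGF-beta or of 67NR compliant TGF-beta. Rigidity in 4TO7 gave 1 without either 4T1 compliant inhibitor array, set 2 of 4T1 rigid TGF-beta or set 1 of 4TO7 compliant TGF-beta.

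Other settings moved the treatment counts, and the cause was not tested. Median scaling over all mouse probes gave 5 for TGF-beta over all lines, 1 for rigidity in 67NR, 1 in 4T1 and 2 for TGF-beta between lines. Median scaling over the probes detected on all arrays gave 0 for TGF-beta in 67NR, 1 and 1 for rigidity in 67NR and 4T1, and 2 for TGF-beta between lines. The authors' table gave 16, 4 and 5 for TGF-beta over all lines, in 67NR and in 4TO7, 2, 1 and 1 for rigidity over all lines, in 67NR and in 4T1, and 2 and 1 for TGF-beta and rigidity between lines. With the slide as a fixed block TGF-beta gave 6 over all lines, 0 in 4TO7 and 3 in 4T1, and rigidity 0 in 4T1. No detection filter gave 1 for rigidity in 4T1, and the slide as a random block moved no count.

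With the set number within each line as a replicate block, 2 members passed for TGF-beta in 67NR, 3 for TGF-beta between lines and 1 for rigidity between lines. In that fit the level of 4T1 was that of set 1, and the levels of 4TO7 and 67NR were those of set 2. Its 9 members for 4T1 against 4TO7 thus do not refer to the line difference averaged over the sets. Permuted within set number, the difference in detected members between 4TO7 and 67NR, -2.12, had an exact adjusted p of 0.0781.

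At a detection p under 0.01 the difference in detected members was -4.0 for 4T1 against 67NR (exact permutation, adjusted p = 0.00772) and -0.125 for 4T1 against 4TO7, reversed from 1.0. With each array left out it ran from -2.32 to -1.8 (4TO7 against 67NR), -1.46 to -0.464 (4T1 against 67NR), 0.661 to 1.66 (4T1 against 4TO7), -0.939 to -0.273 (TGF-beta) and 0.621 to 1.29 (rigidity). Without set 1 of 4T1 compliant TGF-beta the difference of 4T1 and 4TO7 passed (1.66, exact adjusted p = 0.0231), and without set 1 of 4TO7 rigid inhibitor that of rigidity did (1.29, exact adjusted p = 0.0463). Of the 32 tested members, 10 were not above background on every array, and each group had 2 arrays, which limits the precision of small differences.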
